A study of Homo sapiens with 6 samples.

Results

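The amino acid transporter families examined here are the solute carrier families SLC1, SLC3, SLC6, SLC7, SLC36, SLC38 and SLC43. Members were chosen by name alone, as every gene whose current symbol starts with SLC1A, SLC3A, SLC6A, SLC7A, SLC36A, SLC38A or SLC43A followed by a number, without pseudogenes or antisense genes. This rule took 60 of the 26966 named genes, and 35 of the 60 had a mean of at least 10 normalized counts over the 6 libraries and were tested among 15173 genes. The tested members were 4 of 7 in SLC1, 1 of 2 in SLC3, 8 of 19 in SLC6, 7 of 13 in SLC7, 2 of 4 in SLC36, 10 of 12 in SLC38 and 3 of 3 in SLC43. Of the 25 untested members, 10 were at 0 in all 6 libraries and the other 15 reached at most 12.2 normalized counts in any library.

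RNA was sequenced from UWB1.289, an established human ovarian carcinoma line without functional BRCA1, in 3 libraries with a control hairpin (shCTRL) and 3 with a hairpin against HBO1 (shHBO1). Both groups were transduced with lentivirus in the presence of polybrene and selected with puromycin. HBO1, encoded by KAT7, is a histone acetyltransferase, and the series compared shHBO1 with shCTRL. The replicates are numbered 1 to 3 in each group, and the labels do not say whether they came from separate cultures. All p-values therefore measure library-to-library spread only, and that spread may be technical. The sources used here do not give the number of hairpins or clones, so HBO1 loss and off-target hairpin effects cannot be told apart.

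Amino acid transporters move amino acids across the plasma membrane or out of lysosomes, and they supply protein synthesis, glutathione and nucleotide synthesis. Concentrative carriers use the sodium gradient to load the cell with amino acids such as glutamine, and exchangers then trade these for essential amino acids such as leucine. Several SLC7 exchangers are light chains that reach the cell surface only when joined to an SLC3 heavy chain. Tumour cells often express SLC7A5, SLC7A11, SLC1A5 and SLC3A2 strongly. In cells short of amino acids, translation of the transcription factor ATF4 rises through the kinase GCN2, and ATF4 activates several of these genes.

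Recovered reads numbered 35940400 to 39908703 per library, so that 3 reads, the upper limit that a count of 0 allows, correspond to 2.80 to 3.15 normalized counts in a library. KAT7 averaged 3707 ± 214 normalized counts in shCTRL and 888 ± 113 in shHBO1 (SD, n = 3), which is 23.9% of control, with a log2 fold change of −2.07 (SE 0.11, limma, Benjamini-Hochberg adjusted p = 0.00123). All 5 epithelial markers were present, at a summed 206163 to 257308 normalized counts. The 5 ovarian markers each had a mean of at least 10 but differed widely. PAX8, a Mullerian marker, had 8001 to 11302 normalized counts and FOLR1 28.9 to 95.5. WT1 was at 0 in shCTRL replicate 1 and reached at most 26.2. Summed normalized counts of 5 leukocyte markers were 84.9 to 101 in shCTRL and 54.0 to 86.9 in shHBO1. The 5 fibroblast markers summed to 666 to 1171 and 988 to 1298, nearly all from COL1A1 and COL1A2, with DCN at 0. The 4 endothelial markers summed to 924 to 1319 and 790 to 949, mostly from CDH5. The part of such genes in the results was not tested. The number 3 libraries of both groups stood apart from the other 4 on the first principal component, which held 44.4% of the variance. In bulk RNA, fewer cells of a type and less RNA per cell cannot be told apart.

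The transporters with the highest level per length were the sodium-coupled carriers SLC38A2 and SLC38A1, the heavy chain SLC3A2, the nucleobase carrier SLC43A3 and the glutamine and leucine exchangers SLC1A5 and SLC7A5. Per kilobase of transcript, SLC38A2 was highest at 6228 ± 2112 normalized counts in shCTRL (SD, n = 3), followed by SLC3A2 at 5207 ± 434 and SLC43A3 at 3218 ± 922. The first 2 did not differ beyond their spread. SLC1A5 (2222 ± 286), SLC38A1 (2004 ± 124) and SLC7A5 (1989 ± 389) came next and overlapped in their spread. SLC7A1 had a level per kilobase of 1072 ± 134, SLC6A8 of 739 ± 97.8 and SLC38A10 of 723 ± 40.4. The lowest of the 35 was SLC6A20 at 3.00 ± 2.02 per kilobase. The shHBO1 libraries had the same 3 genes at the top, with SLC38A2 at 6548 ± 864, SLC3A2 at 5269 ± 260 and SLC43A3 at 3121 ± 130 per kilobase.

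**Figure D1:**
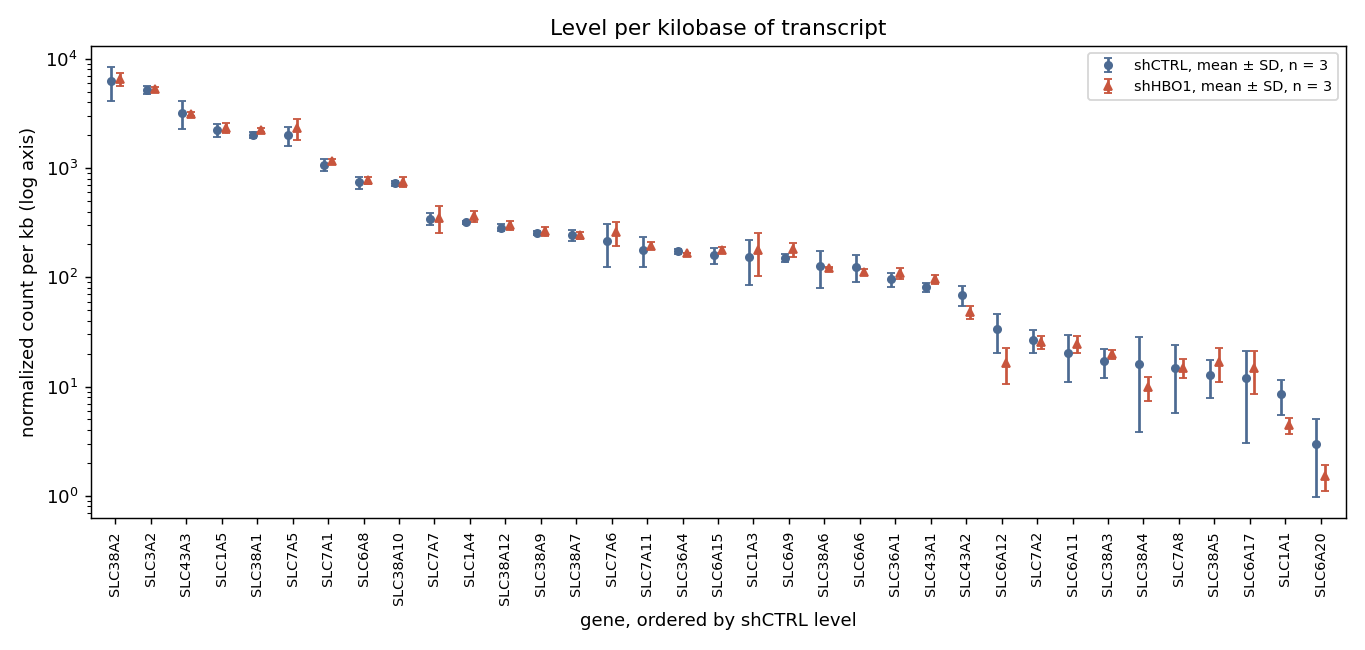
Level of each tested transporter in normalized counts per kilobase of transcript, on a log axis, as the mean and SD of 3 shCTRL (circles) and 3 shHBO1 (triangles) libraries. SLC38A2 and SLC3A2 lead in both groups at shCTRL means of 6228 and 5207, and SLC6A20 is lowest at 3.00.

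Of the 35 tested transporters, 0 passed between shHBO1 and shCTRL in the limma test over all genes at an adjusted p of 0.05, where 0.00659% of all genes (1 gene, KAT7) passed. Adding the replicate number as a block also left 0 of the 35 called, beside 0.125% of all genes (19 genes), of which 0.0395% were higher and 0.0857% lower in shHBO1. On the recovered reads edgeR and DESeq2 called 0 members, as did DESeq2 with the block, beside 0.969% of all genes. The block without the pair numbered 3, a fit of 2 pairs with 1 residual degree of freedom, called 7 members (20%), where it called 14.2% of all genes. At an unadjusted limma p under 0.05 there were 2 members, SLC43A2 and SLC6A12, which is 5.71% of the tested members beside 3.55% of all genes. With the block there were 8 (22.9%), beside 11.3% of all genes: SLC1A3, SLC1A4, SLC38A1, SLC7A5 and SLC7A6 with estimates above 0, and SLC1A1, SLC43A2 and SLC6A12 below 0. Log2 fold changes of the members ran from −0.97 for SLC6A12 to 0.48 for SLC6A17, with a median of 0.08, beside 0.00013 over all genes. Estimates above 0 were found for 26 of the 35 (74.3%) and for 50% of all genes. Among alternatives the number of members above 0 ran from 21, without shHBO1 replicate 3, to 28, without shHBO1 replicate 1.

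The precision of these estimates differed between members. For 26 of the 35 (74.3%) the 95% confidence interval of the difference lay within a 2-fold change in both directions, as it did for 85.3% of all genes. For these 26, which include SLC3A2, SLC7A5, SLC7A11, SLC38A1, SLC38A2, SLC1A5 and SLC7A1, a change of 2-fold or more lies outside the interval, and some smaller changes lie inside it. The other 9 intervals were wider: SLC6A12, SLC1A1, SLC6A11, SLC6A20, SLC38A5, SLC6A17, SLC7A8, SLC1A3 and SLC38A4. All these intervals come from the fit without the block. With the block, the 95% interval left out 0 for the 8 members named above at an unadjusted p under 0.05. Examples are 0.09 to 0.35 for SLC7A5 and −1.55 to −0.38 for SLC6A12, and 0 members passed after adjustment.

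**Figure D2:**
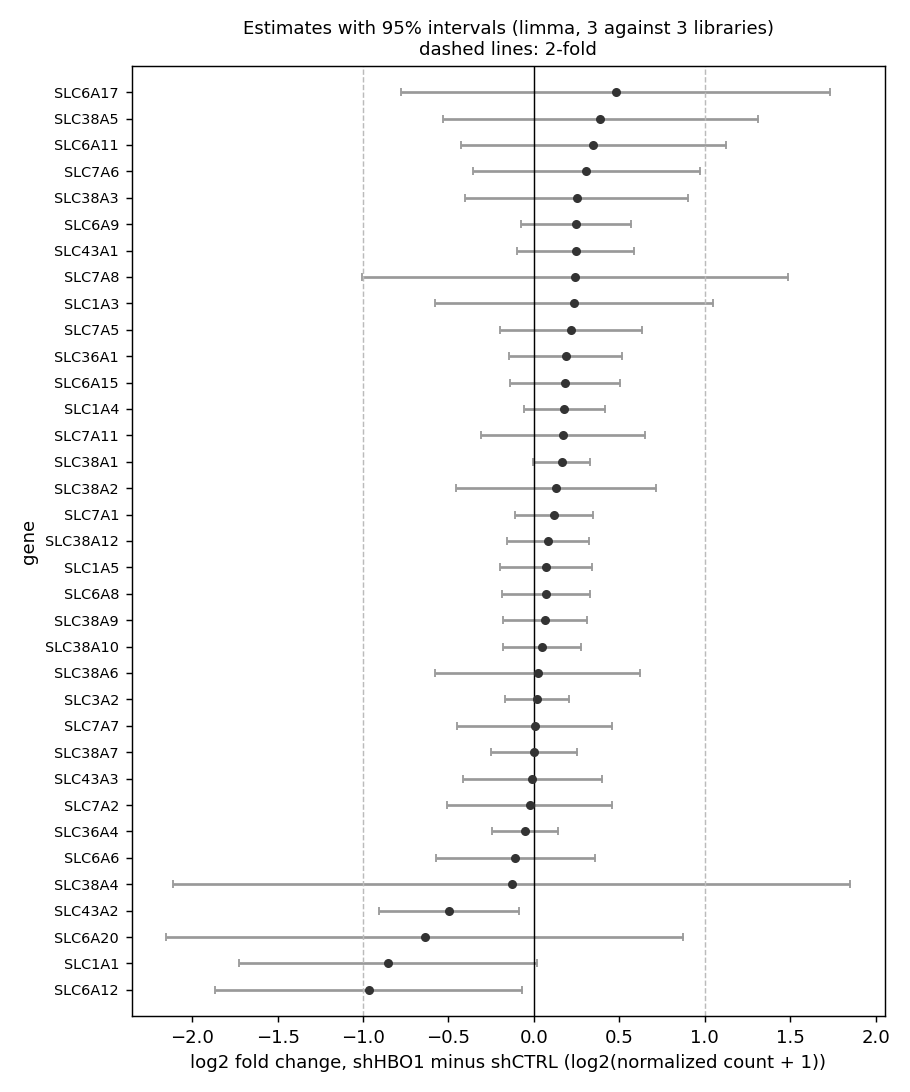
Log2 fold change of each tested transporter, shHBO1 minus shCTRL, with its 95% confidence interval and dashed lines at 2-fold. Intervals come from limma without the replicate block (n = 3 per group). The estimates run from −0.97 for SLC6A12 to 0.48 for SLC6A17, and 0 members pass after adjustment.

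Among the heavy chains, SLC3A2 (4F2hc, also named CD98), which carries light chains to the plasma membrane, was abundant and nearly equal in both groups. It had 9695, 9774 and 11209 normalized counts in the shCTRL libraries numbered 1, 2 and 3 against 9919, 10214 and 10911 in shHBO1. The groups overlapped (log2 fold change 0.02, SE 0.081, 95% confidence interval −0.17 to 0.21). SLC3A1, the heavy chain of the cystine transporter of kidney and gut, had 0.934 to 3.75 normalized counts. Its light chain SLC7A9 reached at most 2.89, so both lay near the level of 3 reads.

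Of the 8 light chains 5 were tested, and SLC7A5 (LAT1), the exchanger that imports leucine and other large neutral amino acids, was the most abundant. SLC7A5 had 7884, 8134 and 11060 normalized counts in shCTRL and 8692, 9799 and 13156 in shHBO1. Number 3 was the highest library of each group, and shHBO1 lay above shCTRL in each of the 3 numbered pairs while the groups overlapped. A log2 fold change of 0.22 was estimated (SE 0.18, 95% confidence interval −0.20 to 0.64). With the block its adjusted limma p of 0.220 was the smallest of any member.

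SLC7A11 (xCT), which takes up cystine for glutathione in exchange for glutamate, had 2285, 1682 and 1217 normalized counts in shCTRL and 2011, 1916 and 1728 in shHBO1. All 3 shHBO1 values lay inside the range of the controls (log2 fold change 0.17, 95% confidence interval −0.31 to 0.65). SLC7A6 (y+LAT2), an exchanger of cationic for neutral amino acids, had 924, 1132 and 2014 normalized counts in shCTRL and 1387, 1393 and 2060 in shHBO1. Again the number 3 libraries were highest in both groups, with a log2 fold change of 0.31 (SE 0.29). The related SLC7A7 (y+LAT1) averaged 748 ± 93.3 and 764 ± 211 normalized counts, and SLC7A8 (LAT2) ran from 19.9 to 93.4 and from 49.2 to 73.8. SLC7A10 reached at most 1.02 normalized counts and SLC7A13 was at 0 in all libraries.

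Per kilobase, the 6 light chains that pair with SLC3A2 summed to 2742 ± 451 normalized counts in shCTRL and 3142 ± 645 in shHBO1. SLC3A2 exceeded that sum in every library, at a ratio of 1.92 ± 0.146 in shCTRL and 1.71 ± 0.243 in shHBO1. The ratio was lowest in the number 3 library of each group, at 1.75 and 1.43, and the groups overlapped.

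**Figure D3:**
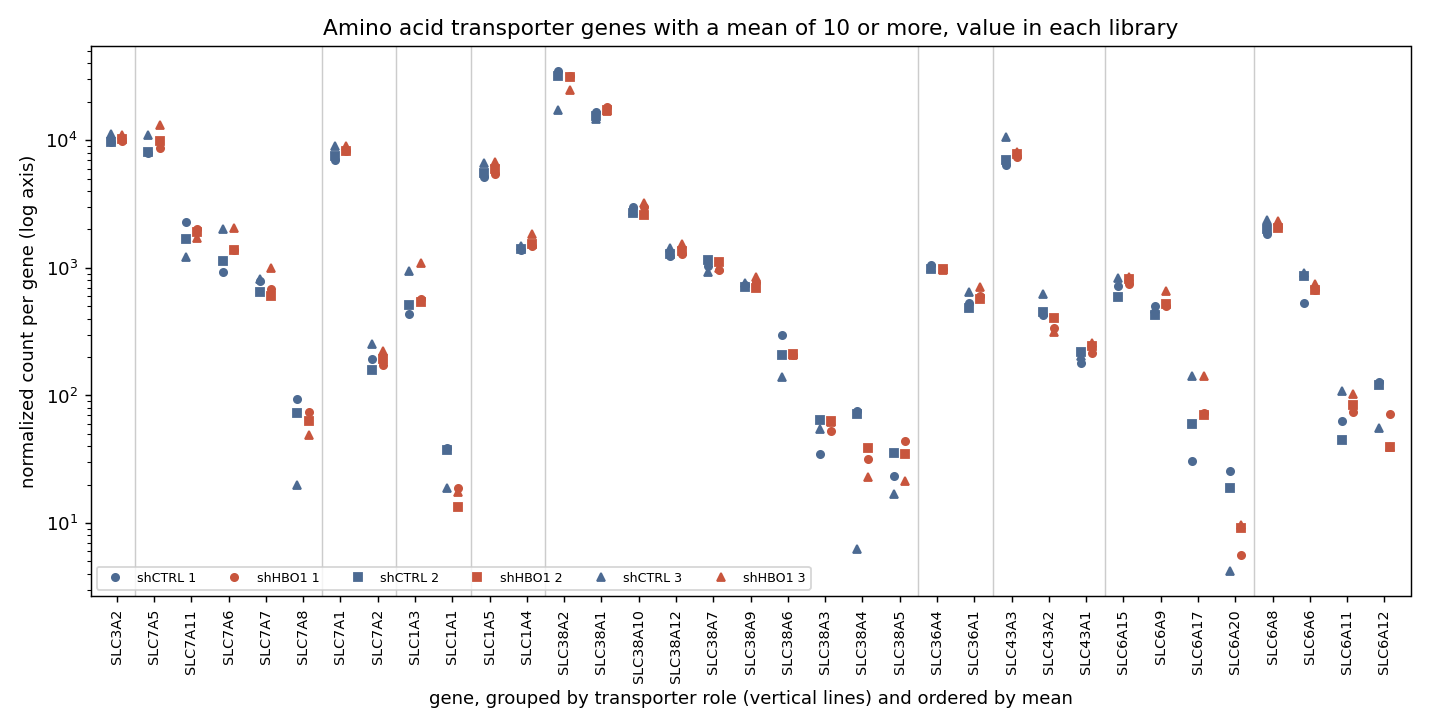
Normalized counts of the 35 tested transporters on a log axis, grouped by role, with 1 point per library (colour for the hairpin, shape for the replicate number). SLC38A1 is higher in all 3 shHBO1 libraries (16998 to 18288) than in all 3 shCTRL libraries (14725 to 16657), and SLC1A1 and SLC43A2 are lower. These members without overlap are 8.57% of the 35, beside 8.93% of all genes, and none passed after adjustment.

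The cationic amino acid transporters were represented mainly by SLC7A1 (CAT1), the widely expressed carrier of arginine and lysine. Values of SLC7A1 were 7069, 7593 and 8972 normalized counts in shCTRL and 8250, 8269 and 9034 in shHBO1. Both groups overlapped (log2 fold change 0.12, 95% confidence interval −0.11 to 0.35). SLC7A2 (CAT2), an inducible arginine carrier, averaged 202 ± 48.3 and 196 ± 26.8 normalized counts. SLC7A3 reached at most 4.06 and SLC7A14 at most 5.62 normalized counts, and SLC7A4 was at 0.

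Of the 5 acidic amino acid transporters 2 were tested, and neither passed. SLC1A1 (EAAT3), a carrier of glutamate, aspartate and cysteine, had 38.6, 37.5 and 18.9 normalized counts in shCTRL and 18.7, 13.2 and 17.4 in shHBO1. Its groups did not overlap, but shCTRL replicate 3 lay just above shHBO1 replicate 1, and all values are low. For SLC1A1 a log2 fold change of −0.85 was estimated (SE 0.38, 95% confidence interval −1.72 to 0.02). SLC1A3 (EAAT1), known from glial cells, had 432, 509 and 940 normalized counts in shCTRL and 570, 540 and 1094 in shHBO1, and its log2 fold change was 0.23 (SE 0.35). Both number 3 libraries held far more SLC1A3 than the other 4. SLC1A2 had reads in 1 library, and SLC1A6 and SLC1A7 were at 0.

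The neutral SLC1 exchangers were both well measured. SLC1A5 (ASCT2), an exchanger that imports glutamine, had 5167, 5534 and 6596 normalized counts in shCTRL against 5412, 5983 and 6739 in shHBO1 (log2 fold change 0.07, 95% confidence interval −0.20 to 0.34). SLC1A4 (ASCT1), which carries alanine, serine and cysteine, had 1385, 1410 and 1491 in shCTRL and 1487, 1537 and 1847 in shHBO1. For SLC1A4 the lowest shHBO1 value lay between the 2 highest controls (log2 fold change 0.18, SE 0.10). Both genes were higher in shHBO1 in each numbered pair.

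The SLC38 family held 10 tested members and the largest values. SLC38A2 (SNAT2), a sodium-coupled carrier of small neutral amino acids whose transcript is induced by amino acid starvation, had 34967, 31642 and 17162 normalized counts in shCTRL. The shHBO1 libraries had 31912, 31252 and 24900. In both groups the number 3 library was lowest, and the log2 fold change of 0.13 (SE 0.25) became −0.19 without shCTRL replicate 3. SLC38A1 (SNAT1), a glutamine carrier, had 16657, 15621 and 14725 normalized counts in shCTRL and 18288, 17308 and 16998 in shHBO1. All 3 shHBO1 values of SLC38A1 lay above all 3 controls. The estimated log2 change was 0.16 (SE 0.072, 95% confidence interval −0.0044 to 0.33), at a limma adjusted p of 1.00 and 0.316 with the block. It was positive under all 20 alternatives, but without overlap between the groups, leaving out libraries or adding the block could not change its sign.

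SLC38A10 had 3015, 2704 and 2807 normalized counts in shCTRL and 3026, 2587 and 3226 in shHBO1, with a log2 fold change of 0.05. The lysosomal members SLC38A9, which signals arginine to mTORC1, and SLC38A7, which exports glutamine, averaged 736 ± 31.3 and 1030 ± 111 in shCTRL and 772 ± 74.4 and 1028 ± 74.4 in shHBO1. SLC38A12 averaged 1314 ± 96.6 and 1393 ± 139 normalized counts, and SLC38A6 averaged 216 ± 79.8 and 210 ± 3.16. The low members SLC38A3, SLC38A4 and SLC38A5 had at most 76.2 normalized counts in any library. SLC38A4 varied most: its controls were 76.2, 72.1 and 6.29, and its shHBO1 values 31.8, 38.7 and 23.2. SLC38A8 had at most 3.15 and SLC38A11 was at 0.

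Among the SLC36 members, SLC36A1 is a proton-coupled carrier that works at lysosomes. SLC36A1 averaged 553 ± 83.4 normalized counts in shCTRL and 628 ± 70.1 in shHBO1, with a log2 fold change of 0.19 and higher values in each numbered pair. SLC36A4 averaged 1011 ± 46.2 and 976 ± 6.42, a log2 fold change of −0.05 (95% confidence interval −0.24 to 0.14). SLC36A2 reached 2.03 normalized counts and SLC36A3 was at 0.

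The SLC43 family carries large neutral amino acids, except SLC43A3, which is a purine nucleobase carrier. SLC43A2 (LAT4), which lets branched-chain amino acids out of cells, had 431, 448 and 622 normalized counts in shCTRL and 336, 405 and 313 in shHBO1. Every shHBO1 value lay below every control. A log2 fold change of −0.50 (SE 0.18, 95% confidence interval −0.91 to −0.09) had a limma p of 0.0236, an adjusted p of 1.00 and an adjusted p of 0.312 with the block. By pair the SLC43A2 difference was −0.36, −0.14 and −0.99, and it was −0.25 without the pair numbered 3. SLC43A1 (LAT3) averaged 201 ± 19.1 and 238 ± 21.4 normalized counts, a log2 fold change of 0.24. SLC43A3 had 6414, 7051 and 10692 in shCTRL and 7465, 7851 and 8111 in shHBO1, with shCTRL replicate 3 above all other libraries and a log2 fold change of −0.01.

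In all, 3 of the 35 members (8.57%) had no overlap between the groups, SLC38A1, SLC1A1 and SLC43A2, where 8.93% of all genes had none. SLC38A1 was the 1 member without overlap that was higher in shHBO1, beside 4.49% of all genes, and the other 2 were lower, beside 4.44%. Within the numbered pairs, 11 members (31.4%) were higher in shHBO1 in all 3 pairs and 15.3% of all genes were. The 11 are SLC1A3, SLC1A4, SLC1A5, SLC36A1, SLC38A1, SLC38A12, SLC43A1, SLC6A15, SLC7A1, SLC7A5 and SLC7A6. Lower in all 3 pairs were SLC1A1, SLC43A2 and SLC6A12, which is 8.57% of members and 17.1% of all genes. The summed signal of the 60 members was 106509, 103518 and 100719 normalized counts in shCTRL and 109139, 109521 and 111983 in shHBO1, where SLC38A2 and SLC38A1 carry the largest shares. As a percentage of all signal in each library the groups overlapped, at 0.267 to 0.291% in shCTRL and 0.289 to 0.309% in shHBO1.

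The SLC6 family splits into carriers of amino acids and carriers of related small molecules. Of the amino acid carriers, SLC6A15, a sodium-coupled carrier of branched-chain amino acids and proline, ran from 589 to 831 normalized counts in shCTRL and from 749 to 848 in shHBO1. The glycine carrier SLC6A9 (GlyT1) averaged 469 ± 40.1 and 559 ± 84.9, a log2 fold change of 0.25, and of 0.73 from its most abundant RefSeq transcript alone. SLC6A17, known from synaptic vesicles, had 30.5, 59.9 and 143 normalized counts in shCTRL and 72.9, 70.3 and 141 in shHBO1. The proline carrier SLC6A20 averaged 16.1 ± 10.8 and 8.14 ± 2.21 normalized counts, with a log2 fold change of −0.64 and a wide interval from −2.15 to 0.87. SLC6A7 and SLC6A19 reached at most 2.81 and 3.05, and SLC6A5, SLC6A14 and SLC6A18 were at 0.

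The creatine carrier SLC6A8 was the most abundant SLC6 gene, with 1831, 2029 and 2375 normalized counts in shCTRL against 2109, 2063 and 2348 in shHBO1 (log2 fold change 0.07). The taurine carrier SLC6A6 averaged 770 ± 208 and 695 ± 40.8, a log2 fold change of −0.11. SLC6A12 (BGT1), which carries betaine and GABA, had 127, 122 and 55.6 normalized counts in shCTRL and 71.0, 39.7 and 39.6 in shHBO1. Its groups overlapped, since shHBO1 replicate 1 exceeded shCTRL replicate 3. For SLC6A12 the log2 estimate was −0.97 (SE 0.39, 95% confidence interval −1.86 to −0.07), at a limma p of 0.0378, an adjusted p of 1.00 and 0.228 with the block. It was −0.26 when its most abundant RefSeq transcript alone was used. SLC6A11 (GAT3) averaged 72.3 ± 33.1 and 87.2 ± 14.9. Of the rest, SLC6A13 reached 12.2, SLC6A16 10.2, SLC6A4 5.61, SLC6A2 3.15 and SLC6A3 2.89 normalized counts.

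More of these transporters passed for a difference between replicate numbers than for the hairpin. In the limma F test for replicate number beside the hairpin term, 6 of the 35 members (17.1%) passed at an adjusted p of 0.05, and 9.68% of all genes passed. SLC7A5, SLC7A6, SLC1A3, SLC1A5 and SLC6A17 were higher in number 3 than in number 1, and SLC38A2 was lower, and 4.84% of all genes passed in each direction. On the log2 scale number 3 exceeded number 1 by 1.57 for SLC6A17, 1.03 for SLC1A3, 0.85 for SLC7A6, 0.54 for SLC7A5 and 0.33 for SLC1A5, and the difference was −0.69 for SLC38A2. Their limma adjusted p-values lay between 0.00369 for SLC1A3 and 0.0432 for SLC6A17. In linear terms SLC6A17 was 2.96-fold and SLC1A3 2.04-fold higher in number 3 than in number 1.

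The number 3 libraries also stood apart in some members that did not pass. Both number 3 libraries lay above the other 4 in 15 members (42.9%), beside 21.6% of all genes. These 15 include SLC7A5, SLC7A6, SLC1A3, SLC1A5 and SLC6A17, which passed. Among those that did not pass are SLC3A2, SLC7A1, SLC7A7 and SLC43A3. Both number 3 libraries lay below the other 4 in SLC38A2, which passed, and in SLC38A4, SLC38A5 and SLC7A8, which did not. Together these are 11.4% of members, beside 19.4% of all genes. The labels give no day or batch for the numbers, so what the number stands for was not tested. Of the 6 members past the F test, SLC1A5 was not called without the pair numbered 1 or without the pair numbered 2. The other 5 of the 6 were called in both fits, and the fit without the pair numbered 1 also called SLC38A4 and SLC7A7. Without the pair numbered 3 the F test called none of the 6, and the members called were SLC38A10 and SLC7A11. The share of all genes called in these fits is not given here, so their member counts are not compared.

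**Figure D4:**
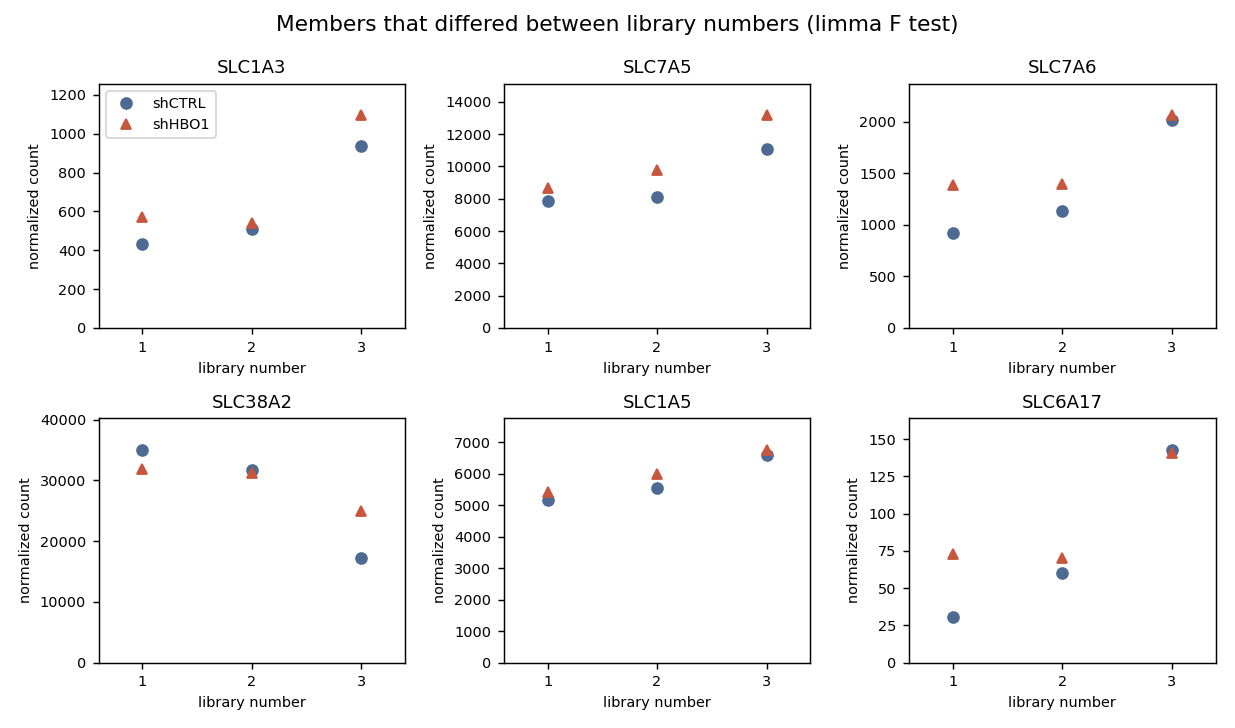
Normalized counts in each library of the 6 transporters past the limma F test for replicate number, against that number, with circles for shCTRL and triangles for shHBO1. Both number 3 libraries are above the other 4 in 5 panels, for example at 940 and 1094 for SLC1A3, and below them for SLC38A2, at 17162 and 24900.

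Promoter windows are shown for 4 of the 5 members that were higher in number 3, because these genes were all higher in the same libraries, and only where at most 10 bases lay in annotated exons. RefSeq (GRCh38.p14) gave a window of 250 bases before the start for 28 of the 35 tested members, and SLC38A3, SLC43A3, SLC6A12, SLC6A15, SLC6A6, SLC7A11 and SLC7A2 had none. Capitals mark the letters of the motifs searched on both strands: TGATGNAA, the core of amino acid response elements bound by ATF4, CACGTG, the palindromic E-box of MYC and TFEB, and TGACNNNGC, the antioxidant response element of NRF2. The windows are chr16:87869508-87869757 on the minus strand (SLC7A5), chr16:68264276-68264525 (SLC7A6), chr5:36596338-36596587 (SLC1A3, 1 of its 3 starts) and chr1:110150244-110150493 (SLC6A17), the last 3 on the plus strand.
SLC7A5: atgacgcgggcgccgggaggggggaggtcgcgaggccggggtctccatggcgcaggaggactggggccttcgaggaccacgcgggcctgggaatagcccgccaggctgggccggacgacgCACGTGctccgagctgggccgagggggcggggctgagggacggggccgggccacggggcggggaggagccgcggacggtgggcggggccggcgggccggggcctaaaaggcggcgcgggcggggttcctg
SLC7A6: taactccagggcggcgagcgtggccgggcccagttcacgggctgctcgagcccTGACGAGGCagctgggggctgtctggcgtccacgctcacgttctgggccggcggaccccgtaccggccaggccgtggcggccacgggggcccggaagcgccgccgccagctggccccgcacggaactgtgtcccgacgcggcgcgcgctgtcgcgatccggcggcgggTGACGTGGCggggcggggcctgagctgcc
SLC1A3: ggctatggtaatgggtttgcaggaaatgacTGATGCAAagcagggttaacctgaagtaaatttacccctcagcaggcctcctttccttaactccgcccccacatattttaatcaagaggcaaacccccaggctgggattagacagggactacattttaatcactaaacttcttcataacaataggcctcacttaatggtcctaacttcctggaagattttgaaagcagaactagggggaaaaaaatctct
SLC6A17: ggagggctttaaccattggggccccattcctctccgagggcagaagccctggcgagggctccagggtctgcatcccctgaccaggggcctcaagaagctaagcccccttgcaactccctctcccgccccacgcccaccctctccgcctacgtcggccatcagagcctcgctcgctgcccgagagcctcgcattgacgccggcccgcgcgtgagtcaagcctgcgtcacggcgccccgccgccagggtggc

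SLC7A5 holds CACGTG 130 to 125 bases before its start, SLC7A6 holds TGACNNNGC 2 times, and the SLC6A17 window holds none of the 3. The SLC1A3 window shown holds TGATGNAA, which the windows of its other 2 starts do not. A check for a GENCODE transcript beginning at or near the window's end found one for SLC7A6 and SLC6A17, but not for SLC7A5 or SLC1A3. A transcript that begins inside the window can also pass this check. Over the tested members, TGATGNAA was found in 2 of 49 windows (SLC1A3 and SLC1A5), and it occurs in 3.144% of all 35116 windows. CACGTG was in 7 windows (SLC1A5, SLC36A1, SLC38A5, SLC43A1, SLC7A5, SLC7A7 and SLC7A8), beside 6.345% of all. TGACNNNGC was in 6 (SLC1A3, SLC1A5, SLC3A2, SLC7A1, SLC7A6 and SLC7A7), beside 10.91% of all. A match describes these letters, not a site.

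Genes around amino acid supply were counted in the same fit, and 0 passed with or without the block in all 5 lists. Of 22 genes of the GCN2-ATF4 response, all 22 were tested, with a median of 0.06 on the log2 scale, and 18 of them lay above 0. ATF3, a stress-induced factor, had a log2 fold change of −0.34, from 886 ± 138 normalized counts with the control hairpin to 697 ± 77.8 in shHBO1. CEBPG (0.14), PPP1R15B (0.12) and the glutathione-degrading enzyme CHAC1 (0.25) had estimates above 0. Of 38 genes of amino acid sensing by mTORC1, 36 were tested, with a median of −0.01 and 16 above 0. Estimates were −0.17 for LAMTOR1, a lysosomal anchor, −0.16 for NPRL3, 0.26 for the leucine sensor SESN2 and 0.29 for RRAGB.

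Of 32 enzymes of amino acid synthesis and glutathione, 30 were tested, with a median of −0.01. BCAT1, a branched-chain aminotransferase, averaged 1010 ± 67.8 with the control hairpin and 1263 ± 75.8 in shHBO1 (log2 fold change 0.32), and ASS1, an enzyme of arginine synthesis, averaged 1869 ± 236 and 1514 ± 29.8 (−0.30). GPT2, an alanine aminotransferase, had 0.17. Of 20 amino acid carriers of other families 13 were tested, with a median of 0.00093, and SLC15A4 (−0.17), SLC25A12 (0.11), SLC16A10 (0.27) and SLC15A1 (−0.18) had the smallest p. Of 14 partners and regulators of the transporters 13 were tested, with a median of 0.15, and 11 of the 13 estimates lay above 0. LAPTM4B, which brings SLC7A5 to lysosomes, had −0.39, and GSK3B had 0.15, MYCN 0.33 and SGK1 0.42. For the number of the library, the F test called 1 of 13 carriers, 3 of 36 mTORC1 genes, 3 of 22 GCN2-ATF4 genes, 5 of 30 enzymes and 3 of 13 partners, beside 9.68% of all genes.

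Single RefSeq transcripts of SLC7A7 varied more between libraries than their sum. The SLC7A7 transcript with the highest mean had 27.4, 490 and 650 normalized counts in the 3 shCTRL libraries, while another had 690, 73.0 and 94.4. Their sum with the non-coding transcript ran from 642 to 816. The most abundant SLC43A1 transcript alone gave a log2 fold change of −2.13, against 0.24 for the summed gene. That transcript had 93.4, 142 and 142 normalized counts in shCTRL and 0, 218 and 103 in shHBO1, so its estimate rests on the 0 in shHBO1 replicate 1. The most abundant transcript alone gave larger changes for SLC6A15 (0.49, against 0.18 for the summed gene) and SLC43A2 (−0.74, against −0.50). For SLC6A12 the change was smaller (−0.26, against −0.97). No member passed after adjustment in that fit.

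Reads may be shared with near-identical or overlapping genes. The SLC7A5 pseudogene SLC7A5P2 averaged 188 normalized counts over the 6 libraries, and SLC6A10P, a copy of SLC6A8, averaged 29.2. SLC7A6OS, on the opposite strand beside SLC7A6, averaged 378 and SLC38A4-AS1 142, more than SLC38A4 itself. For SLC38A4 the strand of the reads is not given, and its own values are uncertain.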

How the data were processed

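RNA-seq of 6 libraries was analysed, 3 shCTRL and 3 shHBO1. The authors deposited 1 table of normalized signal per RefSeq transcript, with 58215 accessions. Bowtie 1.2.1.1, SAMtools, DESeq2 and genome build hg19 are named, without roles, per the submitters' processing notes. How reads were shared between transcripts, and whether libraries were stranded or poly(A)-selected, was not given in the sources used here. Each deposited signal value was a count divided by 1 factor per library: whole reads were recovered for 100% of values, at a tolerance of 0.01 read. On those reads edgeR called 1 gene and DESeq2 19.

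Names came from RefSeq (57191 accessions) and GENCODE (646). Left out were 378 unnamed accessions, with 0.0920 to 0.0977% of reads. The 149 transcripts of the 60 members were summed by gene, so a read counted for several transcripts would enter a sum, and the recovered reads, more than once. Identical values in 2 or more transcripts of a gene occurred in 4 members (SLC1A2, SLC6A2, SLC7A3 and SLC7A9), none of them tested, and unequal sharing would not show in this way. Levels per kilobase used GENCODE transcript lengths. limma 3.58.1 (R 4.3.3) was fitted on log2(normalized count + 1) without a block, for the 15173 genes whose mean reached 10, and p-values were adjusted over all of them (Benjamini-Hochberg). Fold changes are on that scale, which understates those of low genes. The step was tested on simulated data. The 3-read level covers counting error only. edgeR 4.0.16 and DESeq2 1.42.0 served as alternatives, with other scalings, pseudocounts of 0.5 and 5, other filters, libraries left out, and the replicate block.

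Same-numbered libraries had deviations that correlated at 0.32, 0.19 and 0.48 across genes for numbers 1, 2 and 3, all above 0.1. The numbers were taken as pairing the libraries for the block and the pair counts, although shCTRL 2 correlated at 0.21 with shHBO1 1. Deviations were taken from the mean of each group's 3 libraries. A difference shared by the number 3 libraries alone can therefore make the correlations of numbers 1 and 2 positive. These correlations do not show that numbers 1 and 2 are pairs, which the block and the pair counts assume. Standard errors and intervals come from the fit without the block unless the block is named. Genes were named by rule: KAT7, every tested member, untested members by range, and in each context list the 4 genes with the smallest p. A few genes that the rule would name are not reported here, and counts include them. The partner genes, the transcripts and the promoter windows printed were chosen after values were seen. Members and lists were chosen with earlier results of these data known, and SLC38A12 was placed among the roles after the values were read.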

Additional observations from a re-analysis of the deposited data

How the results depend on the processing

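With the replicate block the number of all genes called moved from 1 to 19, and 0 transporters passed with or without it, so the block changed no member's call. DESeq2 without a block called 19 genes, edgeR with the replicate block 19 and DESeq2 with the replicate block 147, with 0 members in each. A replicate block without the pair numbered 3, chosen after seeing the data, called 2160 genes (14.2%) and 7 members (20%). These were SLC7A6 (0.44), SLC7A5 (0.20), SLC43A3 (0.19), SLC7A1 (0.17), SLC38A1 (0.14), SLC38A4 (−1.06) and SLC6A12 (−1.21), at adjusted limma p from 0.00109 to 0.0347. That fit rests on 2 pairs and 1 residual degree of freedom. Over up to 20 alternatives each, 16 of the 35 members kept the sign of the main estimate and 19 changed it at least once. For members without overlap between the groups, leaving out libraries could not change the sign. Leaving out libraries 1 at a time gave 0 members each time. Of all genes, 1 (KAT7) passed without shCTRL replicate 1, 2 or 3, and likewise without shHBO1 replicate 1. With so few genes passing in these fits, the 0 says little about the members. Members at an unadjusted limma p under 0.05 numbered 12 without shCTRL replicate 3, beside 2281 of all 15173 genes, and 0 without shHBO1 replicate 3, beside 434 of them. For replicate number, the F test called 6 members, beside 9.68% of all genes, and none of the 6 without the pair numbered 3. Why these counts differ was not tested. Depth limits the 10 members at 0: a count of 0 still allows a level of up to 2.80 to 3.15 normalized counts per library.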
